A study of Mus musculus with 5 samples.

Results

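Txnip, 4 other genes of the alpha-arrestin family (Arrdc1, Arrdc2, Arrdc3 and Arrdc4) and the 3 genes of the MondoA transcription factor group (Mlxip, Mlx and Mlxipl) were followed in mouse glioma cells with and without insulin-like growth factor 1 (IGF-1). The 8 genes were taken by symbol from tables of 29495 genes, and 7 of them passed the filter on low counts, which kept 15919 genes. The set was chosen by the behaviour of these genes in the comparison described here, because the Txnip level was already known to be lower with IGF-1. The differences of the 8 genes between the groups are therefore a description of these libraries, and no p-value is given for them.

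Alpha-arrestins are adaptor proteins that bring ubiquitin ligases of the NEDD4 type to membrane proteins, which are then taken up from the cell surface. TXNIP binds reduced thioredoxin and promotes the internalisation of glucose transporters, so that it acts as a brake on glucose uptake, and ARRDC4 also restrains it. MondoA (encoded by Mlxip) and its relative ChREBP (Mlxipl) bind DNA together with MLX when glucose phosphates accumulate, and Txnip and Arrdc4 are well-known targets of MondoA. Insulin and IGF-1 signals raise glucose uptake in many tissues, and they inhibit the FOXO transcription factors.

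The cells of every library were p53-/-;NF1-/-;tdTomato+/- glioma cells. They came from tumour-model mice of mixed CD-1/C57BL/6 background, shared a dish with neurons from the olfactory bulbs of C57BL/6 pups, and were then sorted on tdTomato fluorescence. The IGF-1 cells had received IGF-1 at 20 ng/mL overnight (IGF-1 replicates 3, 4 and 5), and the controls were co-cultured cells without added IGF-1 (control replicates 1 and 2). Per the labels' protocols, the media given for the neurons held 25 mM glucose and serum, with insulin in the plating medium. Which medium was used while both cell types grew together is not stated there. The labels do not say whether the libraries came from separate cultures, animals or tumours, so the spread between replicates may be technical.

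The libraries held 18359421, 19036906 and 20144181 counts with IGF-1, against 17365697 and 16944315 counts in the controls. IGF-1 replicate 5 stood apart over genes of at least 10 CPM (counts per 1000000 counts of the scaled library). The SD of its log2 difference from each of the other IGF-1 libraries was 0.22. This SD was 0.11 between IGF-1 replicates 3 and 4 and 0.11 between the controls. Between IGF-1 replicate 3 or 4 and a control it was 0.17 to 0.18. Replicate 5 thus lay further from its own group than replicates 3 and 4 did from the controls. Results that rest on IGF-1 replicate 5 are given with and without it. The 5 oligodendrocyte lineage markers, which such gliomas often express, summed to 2887 to 3340 CPM with IGF-1 and 2711 to 2828 CPM in the controls. The 8 neuronal markers found summed to 8.76 to 14.8 CPM with IGF-1 and 7.85 to 8.14 CPM in the controls, mostly from Syt1, and Rbfox3 had 0 to 1 counts per library. The 4 microglial markers found summed to at most 0.771 CPM with IGF-1 and 0.923 CPM in the controls, the 2 endothelial ones to at most 1.32 CPM and 1.00 CPM. The 4 astrocyte markers summed to 82.1 to 106 CPM with IGF-1 and 88.3 to 93.2 CPM in the controls, mostly from Slc1a2. The part of these other cells in the results was not tested.

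The start-site windows of 3 genes are shown because Txnip and Arrdc3 carried the differences between the groups, and Arrdc4 is the other classic MondoA target. Each window runs from 250 bases before to 50 bases after the annotated transcription start, read 5′ to 3′ on the gene's strand, and comes from RefSeq on GRCm38.p6. The counts were made on GRCm39, and no coordinate was converted. Capitals mark every match, on either strand, to CACGTG (the E-box), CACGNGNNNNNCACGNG (a pair of E-box-like elements spaced like a carbohydrate response element, ChoRE), GTAAACA (a core that FOXO factors bind) or CCAAT (the NF-Y box), which reads ATTGG on the other strand. The Txnip window lies at chr3:96557707-96558006 (plus strand), the Arrdc3 window at chr13:80883134-80883433 (plus strand) and the Arrdc4 window at chr7:68749189-68749488 (minus strand).
Txnip: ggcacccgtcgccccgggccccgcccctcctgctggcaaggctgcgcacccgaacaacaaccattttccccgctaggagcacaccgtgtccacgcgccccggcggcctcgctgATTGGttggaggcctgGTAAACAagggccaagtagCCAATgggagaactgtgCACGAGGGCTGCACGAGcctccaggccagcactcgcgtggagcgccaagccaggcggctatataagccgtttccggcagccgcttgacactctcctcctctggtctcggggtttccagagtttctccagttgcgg
Arrdc3: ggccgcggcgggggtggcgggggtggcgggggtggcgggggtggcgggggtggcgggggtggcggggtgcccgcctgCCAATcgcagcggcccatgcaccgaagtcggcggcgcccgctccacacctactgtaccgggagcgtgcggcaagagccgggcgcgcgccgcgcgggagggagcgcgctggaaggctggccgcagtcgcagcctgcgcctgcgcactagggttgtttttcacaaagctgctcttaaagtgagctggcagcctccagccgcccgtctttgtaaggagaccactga
Arrdc4: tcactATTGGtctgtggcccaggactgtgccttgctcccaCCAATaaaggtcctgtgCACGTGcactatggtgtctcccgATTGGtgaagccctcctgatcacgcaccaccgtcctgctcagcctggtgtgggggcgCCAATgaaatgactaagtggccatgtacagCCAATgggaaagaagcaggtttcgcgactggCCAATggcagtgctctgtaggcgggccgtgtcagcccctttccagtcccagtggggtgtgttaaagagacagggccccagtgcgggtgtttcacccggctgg

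The Txnip window held the spaced pair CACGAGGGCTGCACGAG, which begins 85 bases before the start. It also held GTAAACA, the FOXO-type core, which begins 121 bases before the start and has a CCAAT box on either side. The spaced pair was rare: 16 of 32851 windows in the table (0.0487%) held one, and Txnip was the only gene of the table whose window also held GTAAACA, which stood in 3.65% of windows. The Arrdc4 window held 1 CACGTG, beginning 193 bases before the start, a motif found in 7.15% of windows. It also held 6 CCAAT boxes, a number that 26 of 32851 windows reached (0.0791%). Neither Arrdc4 nor Arrdc3 had the spaced pair or GTAAACA in these windows. Arrdc3 has 3 listed starts, of which the first pair overlap and share 1 CCAAT box, and the third window held none of the motifs.

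**Figure D1:**
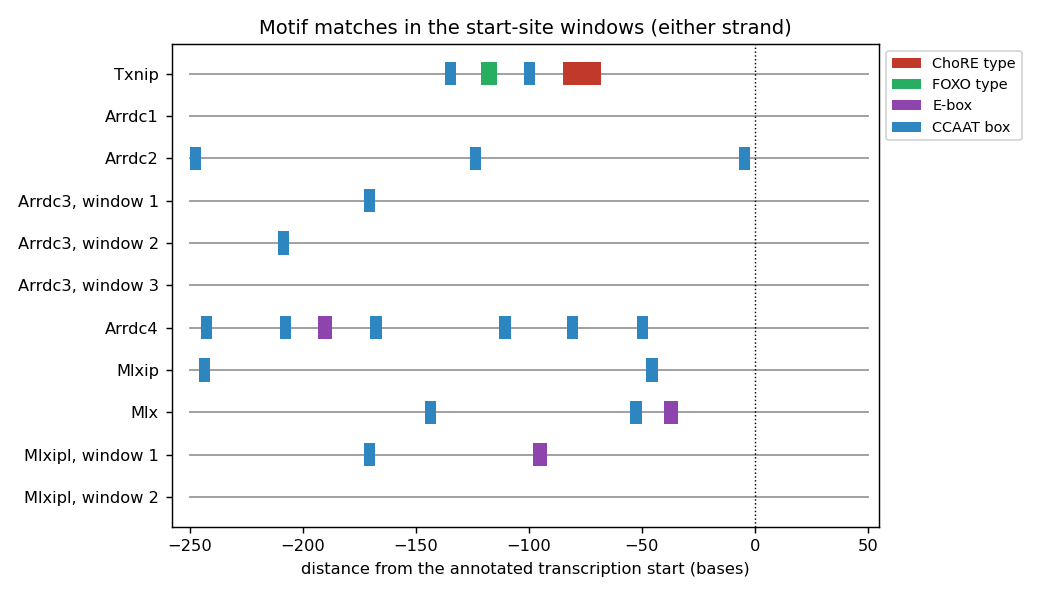
Positions of motif matches in the RefSeq start-site windows of the 8 genes; the horizontal axis is the distance from the annotated transcription start in bases, each line is 1 window of 300 bases, and colours give the motif. The Txnip window is the one with a ChoRE-type pair (beginning 85 bases before the start) and a FOXO-type core, and the Arrdc4 window has 6 CCAAT boxes and 1 E-box.

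Among the other genes of the group, CACGTG stood in the Mlx window, beginning 40 bases before the start, and in 1 of 2 Mlxipl windows, beginning 98 bases before it. The Arrdc2 window had 3 CCAAT boxes, the Mlxip and Mlx windows 2 each, and the Arrdc1 window held none of the 4 motifs. CCAAT alone is common, at 37.4% of all windows. These matches are letters in a fixed window and are not evidence of binding.

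Txnip and Arrdc3 fell with IGF-1, the other alpha-arrestin genes were lower by smaller amounts that were not called, and no gene of the MondoA group was called. Here a gene is called when the adjusted p of edgeR's quasi-likelihood test over all 15919 genes is under 0.05. Of the 7 genes tested, 0 were called higher and 2 lower, beside 0.685% of all tested genes called higher and 0.339% called lower. Nothing is read from that contrast because the set was formed with it in view. In a sorted bulk sample, fewer cells with a transcript and less transcript per cell cannot be told apart.

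Txnip was at 21.3, 22.1 and 20.3 CPM in IGF-1 replicates 3, 4 and 5, against 31.5 and 31.9 CPM in control replicates 1 and 2. The groups did not overlap, and the gap between them was several times the range within either. The mean was 21.2 ± 0.91 CPM (SD, n = 3) with IGF-1 and 31.7 ± 0.254 CPM (SD, n = 2) in the controls, a log2 fold change of -0.58 (SE 0.09, 95% interval -0.78 to -0.38), or 0.669 times the control level. IGF-1 replicate 5, which differed most from the other libraries over all genes, was close to its group for this gene. Without it the log2 change was -0.55 and Txnip was still called. The call was lost without control replicate 1 (log2 -0.59), control replicate 2 (-0.57), IGF-1 replicate 3 (-0.58) or IGF-1 replicate 4 (-0.61), where the size of the change stayed near the value with all libraries.

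Arrdc3, an adaptor in the ubiquitination and trafficking of beta-adrenergic receptors, was the most abundant of the 8 genes and fell by as much. Its level was 98.5, 101 and 108 CPM with IGF-1, against 150 and 165 CPM in the controls, so that the highest IGF-1 library lay well below the lowest control. Means were 102 ± 5.02 CPM (SD, n = 3) with IGF-1 and 158 ± 10.5 CPM (SD, n = 2) in the controls. The log2 fold change was -0.62 (SE 0.07, 95% interval -0.78 to -0.47), and it was -0.66 without IGF-1 replicate 5. With 1788 to 2798 counts per library, the counting error of a single value was at most 2.36%, less than the SD of either group. The call was lost without control replicate 1 (log2 -0.69) or control replicate 2 (-0.55), and it held without each IGF-1 library.

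Arrdc4 was at 21.5, 26.1 and 24.4 CPM with IGF-1, against 28.2 and 28.6 CPM in the controls. All 3 IGF-1 values were below both controls, but they spread over a wider range than the controls did. The log2 fold change was -0.24 (SE 0.10, 95% interval -0.47 to -0.01), and Arrdc4 was not called. Its counts, 390 to 499 per library, gave a counting error of up to 5.06%, much like that of Txnip.

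Arrdc2 was at 8.92, 9.0 and 8.76 CPM with IGF-1, against 11.3 and 10.3 CPM in the controls. The groups did not overlap, and the IGF-1 libraries lay within a narrow range. Its log2 fold change of -0.28 (SE 0.13, 95% interval -0.56 to 0.01) was not called. Arrdc1, whose protein recruits the ESCRT component TSG101 to bud vesicles from the plasma membrane, was at 7.33, 6.88 and 8.52 CPM with IGF-1, against 7.68 and 8.50 CPM in the controls. Here the groups overlapped, and the log2 fold change was -0.09 (SE 0.15, 95% interval -0.43 to 0.25). It was not called under any library left out, and the log2 value ranged from -0.19 without IGF-1 replicate 5, its highest library, to -0.03 without IGF-1 replicate 4 and -0.02 without control replicate 2. Both genes had few counts, 162 to 195 for Arrdc2 and 130 to 174 for Arrdc1, and the counting error of a value reached 7.86% and 8.77%.

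Mlxip, the MondoA gene, was at 59.5, 63.6 and 68.3 CPM with IGF-1, against 51.8 and 57.9 CPM in the controls. It was the one gene of the set whose IGF-1 values were all above the controls. The difference between the nearest libraries of the groups was smaller than the range within either group. Its log2 fold change of 0.22 (SE 0.08, 95% interval 0.03 to 0.41) was not called. It was 0.17 without IGF-1 replicate 5, the library with the highest level, and ranged from 0.14 without control replicate 1 to 0.30 without control replicate 2.

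Mlx, the shared dimerisation partner, was at 29.5, 31.7 and 26.2 CPM with IGF-1, against 26.3 and 30.3 CPM in the controls. The groups overlapped almost wholly. The log2 fold change was 0.04 (SE 0.11, 95% interval -0.20 to 0.28), and the direction turned to -0.02 without IGF-1 replicate 4 and to -0.06 without control replicate 1, so no direction is given. Mlxipl, which encodes ChREBP, the glucose-responsive factor of liver and fat, had 1, 3 and 2 counts with IGF-1 and 0 and 2 counts in the controls. It did not pass the filter and no fold change is given. The 0 counts of control replicate 1 allow a level of up to 0.173 CPM (3 counts, counting error only).

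**Figure D2:**
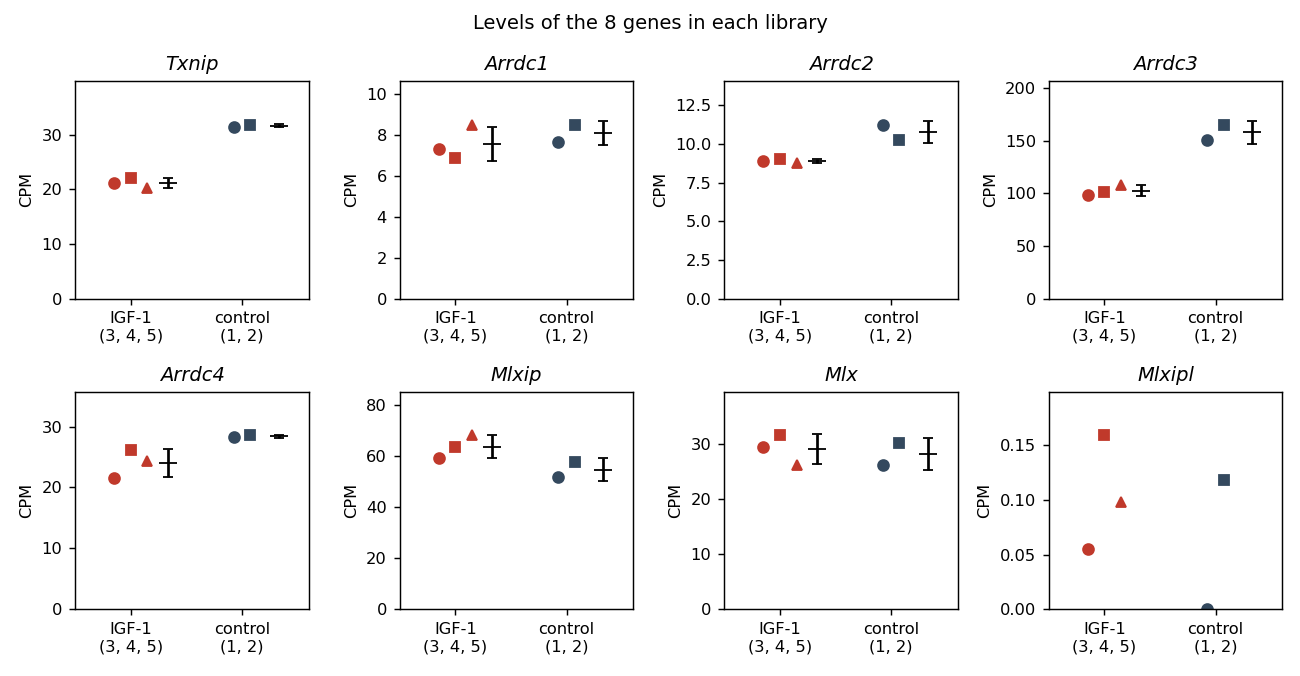
Levels of the 8 genes in CPM (vertical axis, from 0, with its own scale in each panel) for IGF-1 replicates 3, 4 and 5 (red circle, square and triangle) and control replicates 1 and 2 (dark circle and square); black bars are the mean and SD of a group and are left out for Mlxipl, which had 0 to 3 counts. The IGF-1 values of Txnip (20.3 to 22.1 CPM) and Arrdc3 (98.5 to 108 CPM) lie well below the controls, while those of Arrdc1 and Mlx overlap them.

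Across the 5 alpha-arrestin genes all 5 log2 changes were below 0, with a median of -0.28, and in 4 of them the IGF-1 values were all below the controls. Over all tested genes 51.7% of log2 changes were below 0, the median was -0.0076, and the groups did not overlap for 16.9% with IGF-1 lower and 16.2% with IGF-1 higher. For the 7 genes tested the median was -0.24, or -0.25 without IGF-1 replicate 5. Without that library the same 2 genes were called lower and 0 higher, beside 3.65% and 5.49% of 15573 genes called lower and higher.

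**Figure D3:**
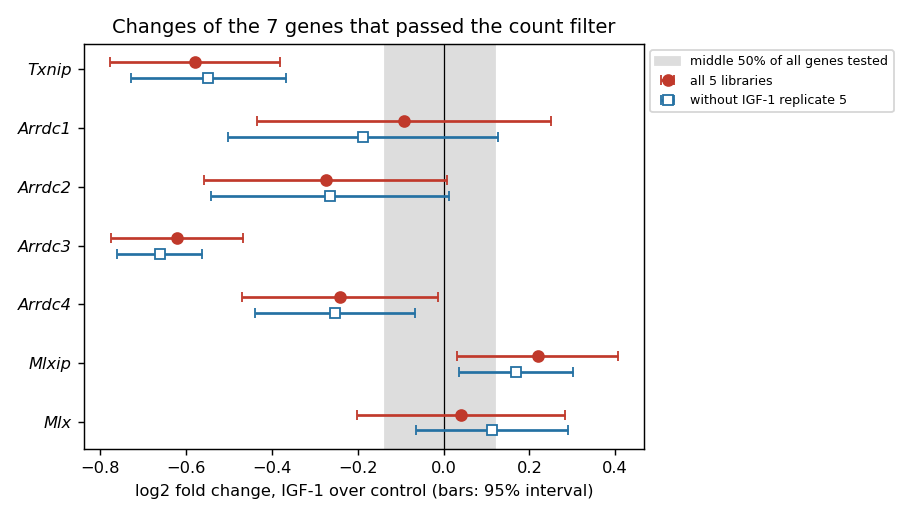
Log2 fold changes of IGF-1 over control for the 7 genes tested (points) with 95% intervals (bars), with all 5 libraries (red circles) and without IGF-1 replicate 5 (blue open squares); the grey band holds the middle 50% of all tested genes. Txnip (-0.58) and Arrdc3 (-0.62) have intervals that end below the band. The intervals are per gene, not adjusted for the number of genes tested or the choice of the set, and no test is read from them.

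Levels can be set side by side between genes only per transcript length, here as mean CPM per kb of the principal GENCODE M21 transcript. Arrdc3 was the highest with 25.0 CPM per kb with IGF-1 and 38.4 CPM per kb in the controls. Mlx followed at 14.8 and 14.4 CPM per kb with IGF-1 and in the controls. Both stood apart from the next gene in every library. Txnip, at 7.58 CPM per kb with IGF-1 and 11.3 CPM per kb in the controls, ranked below Mlxip (8.74) with IGF-1 and above it (7.51) in the controls.

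The per-length ranges of these genes show where that order is firm. With IGF-1, Txnip ranged from 7.25 to 7.90 CPM per kb and Mlxip from 8.15 to 9.35 CPM per kb. In the controls Txnip was at 11.3 to 11.4 CPM per kb and Mlxip at 7.09 to 7.93 CPM per kb, a range that also held Arrdc4 (7.23 to 7.31). Arrdc4 averaged 6.15 CPM per kb with IGF-1, Arrdc1 4.81 and Arrdc2 3.78, against 7.27, 5.14 and 4.57 CPM per kb in the controls. Arrdc1 and Arrdc2 exchanged places in the controls when length was the union of all annotated exons, as did Mlxip and Arrdc4, so neither pair has a firm order there. Mlxipl was last in every case.

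**Figure D4:**
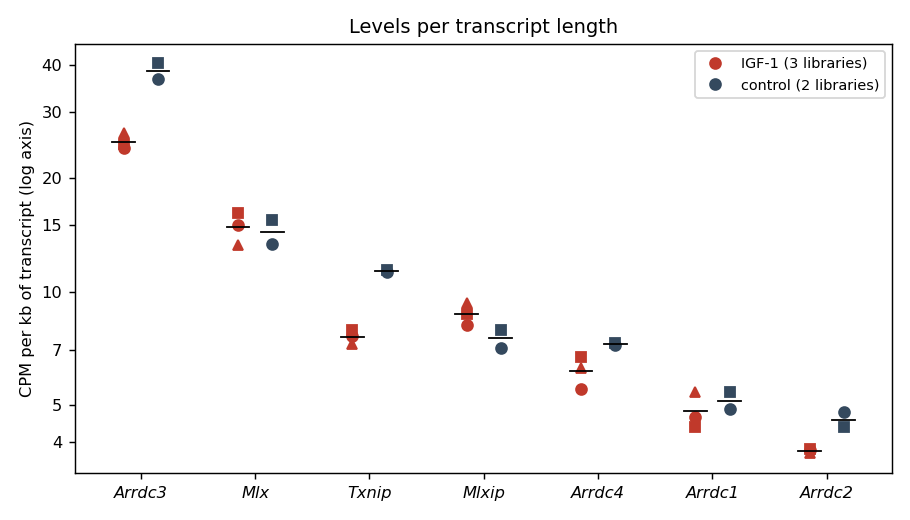
Levels per transcript length (CPM per kb, log axis) of the 7 genes tested in the IGF-1 libraries (red) and the control libraries (dark), with a black line at each group mean and genes ordered by their control mean. Arrdc3 is highest in both groups (25.0 and 38.4 CPM per kb), and Txnip lies below Mlxip in the IGF-1 libraries but above it in the controls.

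The 5 alpha-arrestin genes together summed to 45.6, 47.4 and 49.0 CPM per kb with IGF-1, against 64.8 and 68.7 CPM per kb in the controls. The summed level was lower in each IGF-1 library than in either control. Arrdc3 made up 52.8 ± 0.955% of this sum (SD, n = 3) with IGF-1 and 57.6 ± 1.44% (SD, n = 2) in the controls. Txnip held 16.1 ± 1.09% with IGF-1 and 17.0 ± 0.576% in the controls, where the values overlapped. The shares of Arrdc1 (10.2% with IGF-1 and 7.69% in the controls), Arrdc4 (13.0% and 10.9%) and Arrdc2 (7.99% and 6.86%) were larger in every IGF-1 library than in either control. Shares of a sum depend on each other, and the differences between these genes were not tested.

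The genes whose profiles over the 5 libraries lay nearest to that of Txnip were found by the root mean square distance between log2 CPM values, each centred on its own mean, among 9506 genes of at least 10 CPM. The nearest was Rhebl1, a GTPase gene related to Rheb, at a distance of 0.016. It was at 21.7, 23.0 and 20.7 CPM with IGF-1, against 31.6 and 32.6 CPM in the controls, a pattern almost superposable on that of Txnip. Then came Tmco6 at 0.033, Irs1, whose protein docks at activated insulin and IGF-1 receptors, at 0.034, the AMP deaminase gene Ampd3 at 0.034, the small GTPase gene Arl4a at 0.041 and the zinc finger gene Zfp799 at 0.049. Their log2 changes were -0.56 for Rhebl1, -0.63 for Tmco6, -0.64 for Irs1, -0.56 for Ampd3, -0.50 for Arl4a and -0.66 for Zfp799. Their calls follow from the choice of genes that resemble Txnip: all but Ampd3 were called, all 5 calls were lost without either control, and of these Irs1 alone was called without each IGF-1 library in turn. Zfp799 has close paralogs with which its reads could be shared.

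Within the set, Arrdc3 was the gene most like Txnip, at a distance of 0.090 and rank 50 of 12172 genes of at least 1 CPM. Arrdc2 ranked 340 at a distance of 0.16 and Arrdc4 ranked 577 at 0.18. Arrdc1 ranked 4436 (0.27), Mlx 6853 (0.31) and Mlxip 10555 (0.40). With 5 libraries in 2 groups, such a distance mostly reflects the difference between the groups.

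The genes around this set were taken from 8 lists of 110 genes, of which 109 were found and 98 tested. Of these 98 genes, 3 were called higher and 0 lower, beside 0.685% of all tested genes called higher and 0.339% called lower. The log2 change was below 0 for 48 of the 98. The 8 lists were drawn up with earlier results of these data known. The median log2 change of these 98 genes was 0.0037. Over all genes, DESeq2 called 191 higher and 89 lower, which is the background for its counts in the lists below. For the counts at an unadjusted p below 0.05, no share of all tested genes is given. Those counts therefore have no background here, and no excess is read from them in any list.

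Among 21 tested targets of MondoA and ChREBP outside the set, edgeR called 2 higher and 0 lower, and DESeq2 called 3 higher. At an unadjusted p below 0.05, 4 were higher and 2 lower. Pfkfb3, whose product makes fructose-2,6-bisphosphate and so speeds glycolysis, was at 51.6, 51.6 and 52.5 CPM with IGF-1, against 29.5 and 28.1 CPM in the controls. Its log2 fold change was 0.85 (SE 0.08, edgeR adjusted p = 0.00206). Klf10, a transcription factor gene, was at 76.2, 83.0 and 77.7 CPM with IGF-1, against 50.8 and 52.4 CPM in the controls, and its log2 fold change was 0.61 (SE 0.07, edgeR adjusted p = 0.0054). Both therefore moved opposite to Txnip, and both calls were lost without either control, where Pfkfb3 was at 0.89 and 0.82 and Klf10 at 0.59 and 0.64. The list's median was 0.02, and Scd2 (0.09) and Pkm (-0.11), its members with the highest CPM, not scaled for length, were not called. Without IGF-1 replicate 5, 6 members were called higher, with log2 changes from 0.10 (Scd2) to 0.84 (Pfkfb3), and 1 was called lower (log2 -0.42). In that fit 5.49% of all genes tested were higher and 3.65% lower.

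Glucose transporter and hexokinase genes gave 0 calls among 11 tested by edgeR, with 1 higher by DESeq2 and, at an unadjusted p below 0.05, 1 higher and 0 lower. The 1 was Hk2, the regulated hexokinase of the first step of glucose use, which was named after its values were seen. Hk2 is also in the list of MondoA and ChREBP targets above, and is counted there too among the genes higher by DESeq2 and at an unadjusted p below 0.05. Hk2 was at 25.6, 25.8 and 22.1 CPM with IGF-1, against 17.3 and 16.6 CPM in the controls, so the groups did not overlap (log2 0.53, SE 0.11, edgeR adjusted p = 0.0573). By edgeR it was called without IGF-1 replicate 5 (log2 0.60) and with no filter, and by limma-voom with quality weights. It was not called without IGF-1 replicate 3 (0.50) or 4 (0.49), with RLE factors, with library totals or by limma-voom without those weights. Its log2 change was 0.56 without control replicate 1 and 0.50 without control replicate 2. Hk1 (0.11) and Adpgk (0.05), with the highest CPM of the list, were not called. Slc2a1, the GLUT1 gene, whose protein TXNIP helps to internalise, was named for that role and averaged 22.8 ± 3.07 CPM (SD, n = 3) with IGF-1 and 20.9 ± 0.659 CPM (SD, n = 2) in the controls. The groups overlapped, because IGF-1 replicate 5 (19.3 CPM) lay below the other IGF-1 libraries (25.1 and 24.0 CPM). Its log2 fold change was 0.12, or 0.23 without that library, and it was called in neither case.

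In the thioredoxin and peroxiredoxin system edgeR, DESeq2 and limma-voom called 0 of 18 tested genes, with 1 gene lower and 0 higher at an unadjusted p below 0.05. The list's median was -0.09, or -0.02 when IGF-1 replicate 5 was left out. Prdx2 (log2 -0.00091) and Txnrd1 (0.0085), a peroxiredoxin and the cytosolic thioredoxin reductase gene, were the members with the highest CPM, not scaled for length. Txn1, the thioredoxin that TXNIP binds, was at 192, 180 and 135 CPM with IGF-1, against 185 and 197 CPM in the controls, where IGF-1 replicate 5 alone stood low.

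Of 8 AMPK subunit and kinase genes, edgeR called 1 higher and 0 lower, as did DESeq2. At an unadjusted p below 0.05, 3 genes were higher and 0 lower. AMPK phosphorylates TXNIP and so promotes its degradation. The called gene was Prkab2, a regulatory subunit. It was at 28.3, 26.6 and 27.9 CPM with IGF-1, against 17.7 and 18.9 CPM in the controls (log2 0.59, SE 0.09, edgeR adjusted p = 0.0209). Its call was lost without either control or without IGF-1 replicate 3 or 4, at log2 changes of 0.55 to 0.64. The catalytic subunit genes Prkaa1 (0.15) and Prkaa2 (0.33) and the upstream kinase gene Stk11 (-0.01) were not called, and the list's median was 0.16. Without IGF-1 replicate 5 edgeR called 2 genes of the list higher, Prkab2 and Prkaa2 (log2 0.41), and 0 lower. In that fit 5.49% of all genes tested were higher and 3.65% lower.

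Of 10 NEDD4-type ligase genes and ligase adaptors, the partners of alpha-arrestins, edgeR called 0, DESeq2 called 1 higher, and at an unadjusted p below 0.05 there was 1 higher and 0 lower. The list's median was 0.07, with Nedd4 at -0.04 and Ndfip1 at -0.12. Without IGF-1 replicate 5 edgeR called 1 higher (log2 0.30) and 2 lower (log2 -0.35 and, for Ndfip1, -0.13). In that fit 5.49% of all genes tested were called higher and 3.65% lower. EdgeR and DESeq2 called 0 of 14 ESCRT genes (median 0.02), with 1 higher at an unadjusted p under 0.05, and Pdcd6ip was at 0.07 and Chmp4b at -0.10. They also called 0 of 10 genes for MLX and MAX partners (median -0.02), with 1 gene each way at an unadjusted p below 0.05, and Myc was at 0.17 and Mga at -0.02. Without IGF-1 replicate 5 edgeR called 1 of these 10 higher, which was Myc (log2 0.16), and 1 lower (log2 -0.33). The shares of all genes called in that fit are those given above, 5.49% higher and 3.65% lower.

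The other genes with an arrestin fold gave 0 calls by edgeR and DESeq2 among 7 tested, and 0 at an unadjusted p under 0.05. Their median was 0.0049, and the beta-arrestin gene Arrb1 was at -0.01 and Vps26a, of the retromer complex, at 0.0049. Arrdc5, the remaining alpha-arrestin gene, had 2 counts in IGF-1 replicate 3 and 0 in each other library and was not tested.

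**Figure D5:**
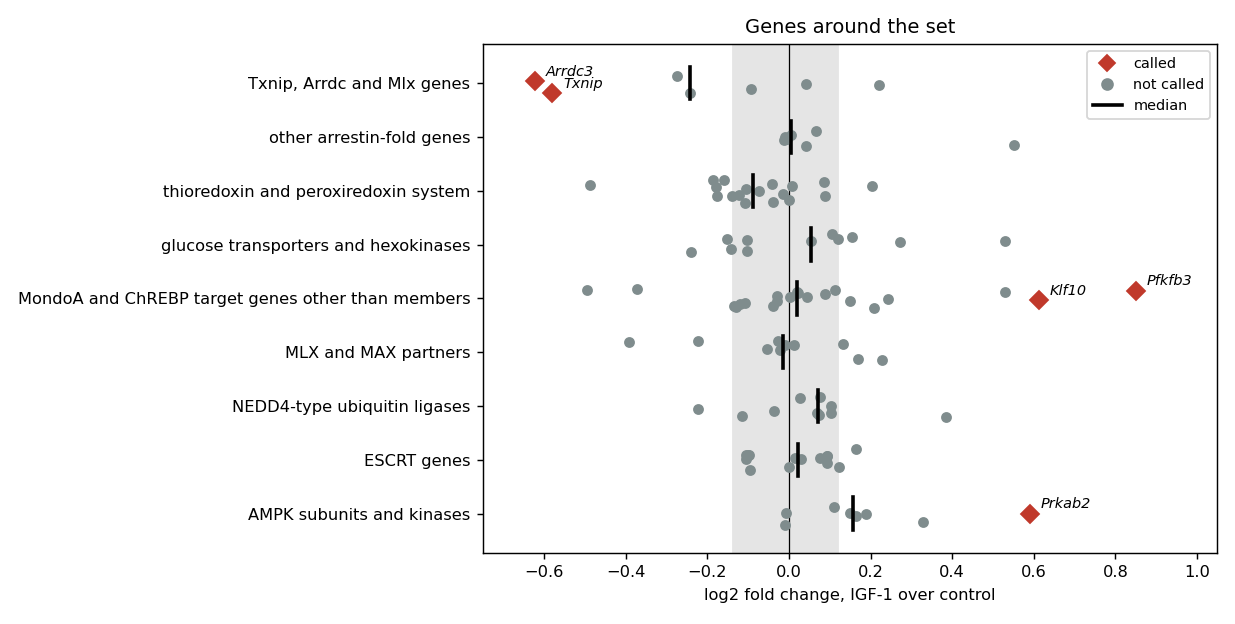
Log2 fold changes of IGF-1 over control for the tested genes of the set (top row) and of the 8 lists around it; each point is a gene, red diamonds are called genes, grey points are not called, black ticks are medians and the grey band holds the middle 50% of all tested genes. Txnip and Arrdc3 are the called genes that lie below 0, and Pfkfb3, Klf10 and Prkab2 are those above it.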

How the data were processed

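RNA sequencing of polyadenylated RNA gave 1 table per library. The deposited values are raw read counts per gene symbol. Per the submitters' processing notes, the authors' tools were DESeq2 1.28.1, featureCounts 2.0.1, STAR 2.7.9a and cutadapt 3.4, with the build GRCm39. Settings, annotation and strand are not given in the sources used here, so reads of overlapping genes could be shared.

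Groups came from the titles. The analysis ran edgeR 4.0.16 under R 4.3.3. Genes were filtered with filterByExpr (minimum count 10, minimum total 15), libraries were scaled with TMM factors, and the groups were compared over the whole table by the two-sided quasi-likelihood test with Benjamini-Hochberg adjustment at 0.05. SEs are absolute log2 changes divided by the root of F. CPM use TMM-scaled library sizes, and log2 profiles add 0.5 CPM. Libraries of 1 group differed by more than counting error (chi-square per degree of freedom 2.29 to 13.5), and all were kept. The procedure was also run on simulated data. These had the same spread in all libraries, so they cannot show how the procedure handles a library that stands apart like IGF-1 replicate 5.

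The members and lists were chosen with earlier results of these data known. The genes named are all members, up to 4 called and the 2 tested genes of highest mean CPM, not scaled for length, in each list, and the 6 profiles nearest to Txnip. Arrdc5, Hk2, Prkaa2, Slc2a1 and Txn1 were added after their values were seen. Principal transcript lengths (GENCODE M21, GRCm38) matched 97.5% of tested genes by symbol. All 8 members matched the RefSeq start-site table. Alternatives were RLE factors, library totals, no filter, DESeq2 1.42.0, limma-voom 3.58.1, sample quality weights, each library left out, and, added after seeing the data, DESeq2 without IGF-1 replicate 5 and union exon lengths.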

Additional observations from a re-analysis of the deposited data

How the results depend on the processing

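The 2 calls among the members, Txnip and Arrdc3 lower with IGF-1, held under all 7 alternatives that changed the scaling, filter, tool or weights. These include DESeq2 without IGF-1 replicate 5, which was added after seeing the data. All 7 reuse the values by which the set was chosen. They show how the calls depend on processing and give no further support for the 2 differences. With each library left out in turn, 0 to 2 members were called lower and 0 higher. Txnip ranged from -0.61 to -0.55 and Arrdc3 from -0.69 to -0.55 over all 12 alternatives. The other members were called in none, and only Mlx changed sign (-0.06 to 0.15). Fits with a lone control take its spread from the IGF-1 libraries.

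Over all genes, 109 were called higher and 54 lower. The counts were 191 and 89 by DESeq2, 387 and 189 by DESeq2 without IGF-1 replicate 5, 385 and 221 with no filter, and 480 and 331 with quality weights. With each library left out, 0 to 855 were higher and 2 to 569 lower. Of the distinct genes of the 8 lists, 3 were higher and 0 lower. The counts were 5 and 0 by DESeq2 and with no filter, 8 and 1 by DESeq2 without IGF-1 replicate 5, 8 and 2 with quality weights, and 0 to 10 and 0 to 4 with each library left out. The causes were not tested. All 163 called genes were also called without IGF-1 replicate 5. That fit called 855 genes higher and 569 lower. Its estimated common coefficient of variation between replicates was 0.032, against 0.077 with all libraries. With so many more genes called, keeping the 163 does not measure how stable they are. The 6 profiles nearest to Txnip stood at ranks 1 to 10 when genes of at least 1 CPM were included. No paired analysis was possible because the replicate numbers are not shared between the groups. Depth limits Mlxipl and Arrdc5, at 0 to 3 counts per library.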
